A study of Mus musculus with 4 samples.

Results

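Transthyretin, encoded by Ttr, was examined together with 8 genes that handle the 2 cargoes it carries, thyroid hormone and retinol. The 9 genes were defined by symbol, not by a threshold on their values, and each had 1 transcript cluster on the array, out of 19938 genes with a single-symbol row (21789 rows). They are Rbp4, Stra6, Slco1c1, Dio2, Dio3, Thra, Thrb and Crym beside Ttr. The arrays held hippocampal RNA of male C57BL/6JJmsSlc mice aged 11 to 12 weeks, 1 array per sample. Mice of the R-SDS group (2 arrays) underwent repeated social defeat stress, with 10 min of daily contact with an aggressive ICR male over 10 days and housing beside it behind a board in between. Control mice (2 arrays) lived in divided cages in pairs without defeat. The study places the stressed mice on its arrays in a class that avoids an unfamiliar ICR male, which the labels do not give. The study states that 2 R-SDS mice were analysed on arrays, and the sources do not say outright whether the control arrays came from separate mice, so any p below measures the spread among these 4 arrays.

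Transthyretin is made by the liver and by the choroid plexus, which secretes the cerebrospinal fluid. It carries thyroxine (T4), and it holds retinol-binding protein 4 with its retinol. Retinol enters cells through the receptor STRA6, and thyroxine crosses the vessel wall and the choroid plexus through the transporter OATP1C1, the product of Slco1c1. Within the brain, the deiodinase encoded by Dio2 makes the active hormone T3 from thyroxine, the deiodinase of Dio3 inactivates both hormones, the protein encoded by Crym binds T3 in the cytosol, and the receptors of Thra and Thrb bind T3 in the nucleus and regulate genes there.

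Sequence upstream of the members is shown for the carriers on either side of Ttr, since Slco1c1 stood higher in 1 stressed mouse while Rbp4 did not. For Slco1c1 and Rbp4 the stretches are the 250 bases before the first annotated start on the gene's strand, from RefSeq (GRCm38.p6). Windows of 6 of the 9 members were searched. Those of Ttr, Thra and Crym were not used, so the search does not cover Ttr itself. Slco1c1 lies at chr6:141524354-141570177 and Rbp4 at chr19:38116620-38125321. Receptors for T3 and for retinoic acid bind pairs of the hexamer AGGTCA, which was searched on both strands and is set in capitals.
Slco1c1, chr6:141524104-141524353, plus strand: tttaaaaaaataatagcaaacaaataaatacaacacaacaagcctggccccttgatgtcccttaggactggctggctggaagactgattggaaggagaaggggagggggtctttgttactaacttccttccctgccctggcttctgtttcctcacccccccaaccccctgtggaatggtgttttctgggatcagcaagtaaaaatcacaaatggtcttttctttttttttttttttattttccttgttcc
Rbp4, chr19:38125322-38125571, minus strand: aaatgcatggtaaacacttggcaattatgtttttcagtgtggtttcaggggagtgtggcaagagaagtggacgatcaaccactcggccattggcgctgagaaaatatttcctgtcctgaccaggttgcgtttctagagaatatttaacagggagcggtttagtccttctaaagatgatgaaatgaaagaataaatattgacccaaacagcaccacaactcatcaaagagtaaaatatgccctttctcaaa
Thrb, chr14:17660764-17660793, plus strand: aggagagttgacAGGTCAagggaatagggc
Neither carrier held the hexamer in these windows. Of 11 windows of the 6 members, 1 held it, namely a window of Thrb, whose 30 bases around the match are shown. It precedes an internal start of Thrb, a gene that RefSeq places at chr14:17659225-18040097, and the match began 184 bases before that internal start. Of all 32851 windows of 250 bases, 14% held the hexamer. A match of letters is no binding site, and none of these arrays measured binding.

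The comparison asked whether the carriers, deiodinases and receptors differed with the stress as Ttr did. The difference between R-SDS and Control was largest for Ttr, smaller for Stra6 and Slco1c1, and under 0.21 in size on the log2 scale for the remaining 6. Ttr was higher in R-SDS than in Control at either replicate number, whereas Stra6 and Slco1c1 stood apart in R-SDS 1 alone. Rbp4, the partner protein of transthyretin, had a lower mean in R-SDS mice. No member passed an adjusted p of 0.05 in limma (0 of 9, against 0% of all 21789 transcripts), where each had an adjusted p of 1. At an unadjusted p under 0.05 the count was also 0 of 9 in limma, against 1.01% of all transcripts, and 0 of 9 in the methods' t-test. In the fit of all 4 arrays without a block, none passed the cut used in the study (log2 difference above 0.5 in size, unadjusted p under 0.05), which 0.34% of all transcripts met in limma. The study itself lists Ttr as upregulated on its arrays at that cut, a difference whose source was not tested. It also reports higher Ttr mRNA by RT-qPCR and higher protein by Western blot in stressed mice of its avoiding class. Without R-SDS 2, a fit in which the stressed group is 1 array, the differences were 3.80 for Ttr, 1.245 for Stra6 and 0.59 for Slco1c1.

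The 2 groups overlapped for all 9 members. Among all transcripts, both R-SDS arrays lay above both controls for 9.41% and below them for 9.06%. Within both replicate numbers, that is for R-SDS 1 against Control 1 and R-SDS 2 against Control 2, the R-SDS array was higher for Ttr and Slco1c1, 2 of 9, against 27.3% of all transcripts. It was lower within both for Rbp4, Dio3, Thra and Crym, 4 of 9, against 22.7% of all transcripts. Within number 2, however, the differences were only -0.0253 for Thra, -0.0036 for Dio3 and -0.0008 for Crym, so their sign says little. For the members not named here, 3 of 9, the sign differed between the numbers. The labels do not tell what a number stands for, and the value distributions of the arrays were wider in number 1 (interquartile ranges 3.34 and 3.37) than in number 2 (3.06 and 3.11). With 2 arrays against 2, an exact two-sided permutation test cannot give a p below 0.333.

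**Figure D1:**
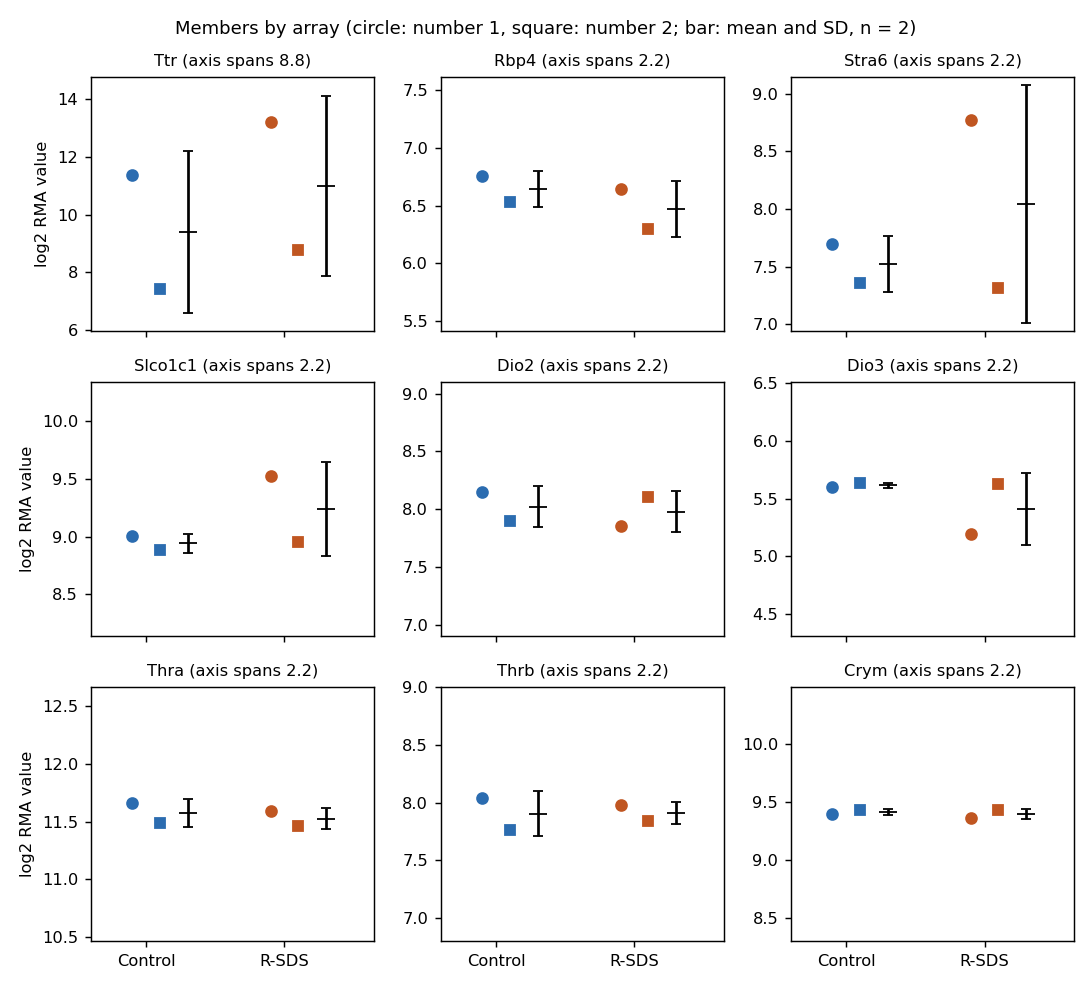
Log2 RMA values (vertical axes) of the 9 members in Control and R-SDS arrays, with circles for replicate number 1, squares for number 2, and group means drawn beside them with SD bars (n = 2). Ttr spans a wider axis than the other genes, Stra6 and Slco1c1 have 1 raised point (R-SDS 1), and the points of Crym lie within 0.0671 of each other.

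Ttr had log2 RMA values of 11.38 (Control 1) and 7.43 (Control 2) without stress, and of 13.21 (R-SDS 1) and 8.79 (R-SDS 2) after it. The order from low to high was therefore Control 2, R-SDS 2, Control 1 and R-SDS 1, in which the groups alternate. The group means were 9.40 ± 2.79 in Control and 11.00 ± 3.12 in R-SDS mice (SD, n = 2 each), and their difference of 1.60 (SE 1.70, limma) had a 95% interval from -2.56 to 5.76. On the linear scale the interval runs from 0.169-fold to 54.0-fold. In R-SDS 1 the level was 3.55-fold that of Control 1, and in R-SDS 2 it was 2.58-fold that of Control 2. Across the numbers the comparison went either way, since R-SDS 1 stood 55.0-fold above Control 2 while R-SDS 2 stood 6.01-fold below Control 1.

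No other transcript tested differed as much between the controls, or spanned as wide a range over the 4 arrays, as Ttr did. The controls lay 3.95 apart on the log2 scale, or 15.5-fold, which ranked 1 of 21789, and Ttr was the 1 transcript whose controls lay at least 2 apart. At least 1 apart were 50 transcripts, and the median distance between the controls was 0.18. The R-SDS mice lay 4.42 apart for Ttr, or 21.3-fold. By its group difference Ttr ranked 2 among all transcripts. Within the numbers it ranked 23 in number 1 and 3 in number 2. Without R-SDS 1 the Ttr difference was -0.61, without Control 2 it was -0.38, without Control 1 it was 3.57 and without R-SDS 2 it was 3.80. The sign and the size of the group difference thus varied with the array left out, while the sign within the numbers was the same.

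The genes whose profile over the 4 arrays, centred on its own mean, lay nearest to that of Ttr were Kcnj13 (root mean square difference 0.90), Clic6 (1.20), Sostdc1 (1.25), Ecrg4 (1.29) and Ace (1.36). Ttr itself varied about its mean with a root mean square of 2.24. Kcnj13 encodes a potassium channel, Clic6 a chloride channel protein, Sostdc1 a secreted inhibitor of growth factors and Ace the angiotensin converting enzyme. All 5 are on the list of choroid plexus markers, though the measure also picks genes for a wide range. Kcnj13 values were 7.34 (Control 1), 5.83 (Control 2), 10.75 (R-SDS 1) and 5.56 (R-SDS 2). It shared with Ttr the high values in number 1, but within number 2 it was lower in the stressed mouse by a log2 difference of -0.27. Of the members, Stra6 came nearest to Ttr, at rank 43 of all transcripts, followed by Slco1c1 at rank 659.

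Over the 21 measured choroid plexus markers (of 24 listed, members left out), the difference was mostly between R-SDS 1 and the other arrays. Within number 1 all 21 were higher in the stressed mouse, with a median of 2.13 and a range from 0.52 to 3.41. Within number 2, 12 of 21 were higher and the median was 0.03, from -0.28 to 0.53. The largest group differences were those of Kcnj13 (1.57), Clic6 (1.55), Tmem72 (1.43) and Sostdc1 (1.38). Summed on the linear scale, the markers gave log2 levels of 10.53 and 10.11 in the controls, 12.82 in R-SDS 1 and 10.20 in R-SDS 2. Without R-SDS 1, 7 of 21 had a higher mean in the stressed group, against 21 with it. Relative to Control 2, the markers stood higher in Control 1 by a median of 0.18 and by at most 1.52 (Kcnj13), where Ttr was higher by 3.95. In R-SDS 2 their median was 0.03 and their highest value 0.53 (Aqp1, a water channel), where Ttr was higher by 1.36. The median level of the markers was 5.57 and 5.64 in the controls, 7.69 in R-SDS 1 and 5.56 in R-SDS 2, without detection calls. The dimmest marker stood at 3.98 in either control and at 3.79 in R-SDS 2. These values lay under the first quartile of tested transcripts (4.88 to 5.08), so small differences of dim markers are a weak measure. Of 7 ependymal markers, 6 were higher within number 1 (median 0.12) and 3 within number 2 (median -0.11), against 10508 and 10474 of all 19938 genes. In RNA of whole tissue, more cells of a type and more RNA per cell cannot be told apart. The part of choroid plexus RNA in the Ttr values was not tested.

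**Figure D2:**
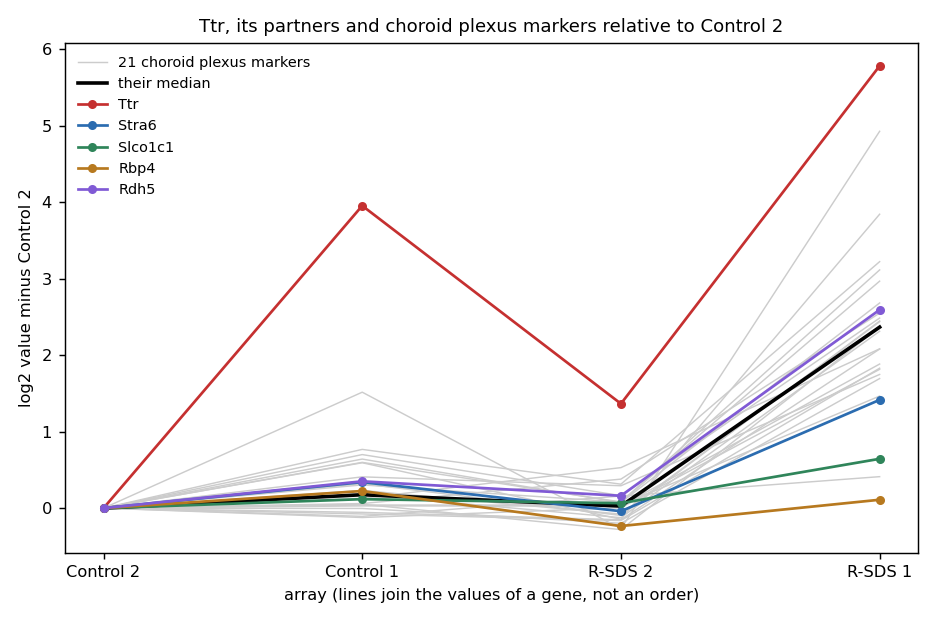
Log2 value minus that of Control 2 (vertical axis) in each array (horizontal axis) for 21 choroid plexus markers in grey with their median in black, and for Ttr, Stra6, Slco1c1, Rbp4 and the retinol dehydrogenase gene Rdh5 in colour; the lines join values of a gene and mark no order. Ttr stands at 3.95 in Control 1 and 1.36 in R-SDS 2, where the marker median is 0.18 and 0.03. In R-SDS 1 Rbp4 stands at 0.11 and Slco1c1 at 0.64, with the other coloured genes higher.

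Among the retinol carriers, Rbp4 had 6.75 and 6.53 in the controls (numbers 1 and 2), and 6.64 and 6.30 in the stressed mice. The R-SDS value was the lower one within either number, by log2 differences of -0.11 and -0.23, but R-SDS 1 stood above Control 2. The group difference was -0.17 (SE 0.17, 95% interval -0.60 to 0.25), and without R-SDS 2 it was close to nil at -0.0022. Where Ttr was high, in number 1, Rbp4 was higher than in number 2 by 0.22 in controls and 0.34 in R-SDS mice. Those steps were small beside the 3.95 and 4.42 of Ttr. Rbp4 is strongly expressed in liver. Of 11 measured liver genes, 8 had a lower mean after stress (median difference -0.12), against 9279 of all 19938 genes. The liver genes were uneven, from -1.99 for Serpina1c (an alpha-1-antitrypsin) and -1.70 for Alb (serum albumin) to 0.35 for Ambp (a plasma protein precursor). The plasma protein genes Apoa2 and Ahsg had -0.45 and -0.44. Levels were low for Serpina1c, at 4.99 and 4.47 in Control and 3.03 and 2.45 in R-SDS mice. They were also low for Ambp, between 4.27 and 4.65. Alb had the smallest adjusted p of all transcripts in limma, 0.264. The part of these differences in the Rbp4 values was not tested.

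Stra6, the receptor that takes up retinol from its carrier, had 7.70 in the first control and 7.35 in the second, against 8.77 (R-SDS 1) and 7.31 (R-SDS 2). R-SDS 1 stood above all other arrays, and R-SDS 2 was the lowest of the 4. Within number 1 Stra6 was 2.11-fold higher in the stressed mouse (log2 difference 1.07), and within number 2 the log2 difference was -0.04. The group difference was 0.52 (SE 0.45, 95% interval -0.57 to 1.61), and it turned to -0.21 without R-SDS 1. Stra6 is expressed in choroid plexus and in cells of the vessel wall and meninges. Of 9 meningeal fibroblast markers, 8 were higher within number 1 (median 0.32) and 3 within number 2 (median -0.08), against 10508 and 10474 of all 19938 genes. The log2 of the summed linear level of these markers was 10.69 and 10.45 in the controls, 11.29 (R-SDS 1) and 10.60 (R-SDS 2) after stress. The choroid plexus markers had the values given above. Their part in the Stra6 values was not tested.

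Slco1c1, the thyroxine transporter of brain vessels, choroid plexus and astrocytes, had 9.003 and 8.89 in the 2 controls, against 9.53 (R-SDS 1) and 8.95 (R-SDS 2). The controls and R-SDS 2 lay within 0.12 of each other, and R-SDS 1 was higher. The log2 difference was 0.53 within number 1 (1.44-fold) and 0.06 within number 2. The group difference of 0.30 (SE 0.21, 95% interval -0.22 to 0.81) was 0.0061 without R-SDS 1. Of 10 measured endothelial markers, 8 were higher within number 1 (median 0.21) and 8 within number 2 (median 0.11), and of 9 astrocyte markers 7 within either number (medians 0.12 and 0.08). Over all 19938 genes, 10508 were higher within number 1 and 10474 within number 2. Of 10 neuron and subfield markers, 5 were higher within number 1 (median 0.01) and 8 within number 2 (median 0.11). Within number 2 the higher values were thus not particular to vessels or astrocytes. The log2 of the summed linear level lay at 11.52 and 11.32 in controls against 11.76 and 11.47 after stress for endothelium, and at 13.56 and 13.44 against 13.67 and 13.48 for astrocytes. Their part in the value of Slco1c1 was not tested.

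Both deiodinase genes had a lower mean after stress, but neither was lower by more than the spread between arrays. For Dio2 the values were 8.15 (Control 1), 7.90 (Control 2), 7.85 (R-SDS 1) and 8.10 (R-SDS 2). It was lower in the stressed mouse within number 1 by a log2 difference of -0.29 and higher within number 2 by 0.21, so that the group means differed by -0.04 (SE 0.16, 95% interval -0.44 to 0.35). For Dio3 they were 5.60 (Control 1), 5.63 (Control 2), 5.19 (R-SDS 1) and 5.63 (R-SDS 2). R-SDS 1 was the low array, by -0.41 against Control 1, and the other 3 were nearly level. The group difference of Dio3 was -0.20 (SE 0.18, 95% interval -0.64 to 0.23), and without R-SDS 1 it was 0.0137. In R-SDS 1, the array with the highest Ttr, both deiodinase genes thus had their lowest value. For Dio2 the next array, Control 2, was only 0.0429 higher.

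Thra, Thrb and Crym stayed within narrow ranges while Ttr spanned 5.78. Thra measured 11.66 and 11.49 in Control 1 and Control 2, and 11.59 and 11.46 in R-SDS 1 and R-SDS 2. Thrb measured 8.04 and 7.77 in the controls, and 7.98 and 7.84 in the R-SDS mice. For both receptor genes the arrays of number 1 were the higher ones in either group, and the stress difference was smaller than that step. The group differences were -0.05 (SE 0.14, 95% interval -0.39 to 0.29) for Thra and 0.0079 (SE 0.15, 95% interval -0.37 to 0.38) for Thrb. Crym had 9.40 and 9.43 without stress and 9.36 and 9.43 after it, with a group difference of -0.02 (SE 0.13, 95% interval -0.33 to 0.30). The intervals reach 1.23-fold for Thra, 1.31-fold for Thrb and 1.23-fold for Crym at their upper ends, and 0.762-fold, 0.774-fold and 0.795-fold at their lower ends. Changes inside these bounds cannot be told from none with these arrays.

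**Figure D3:**
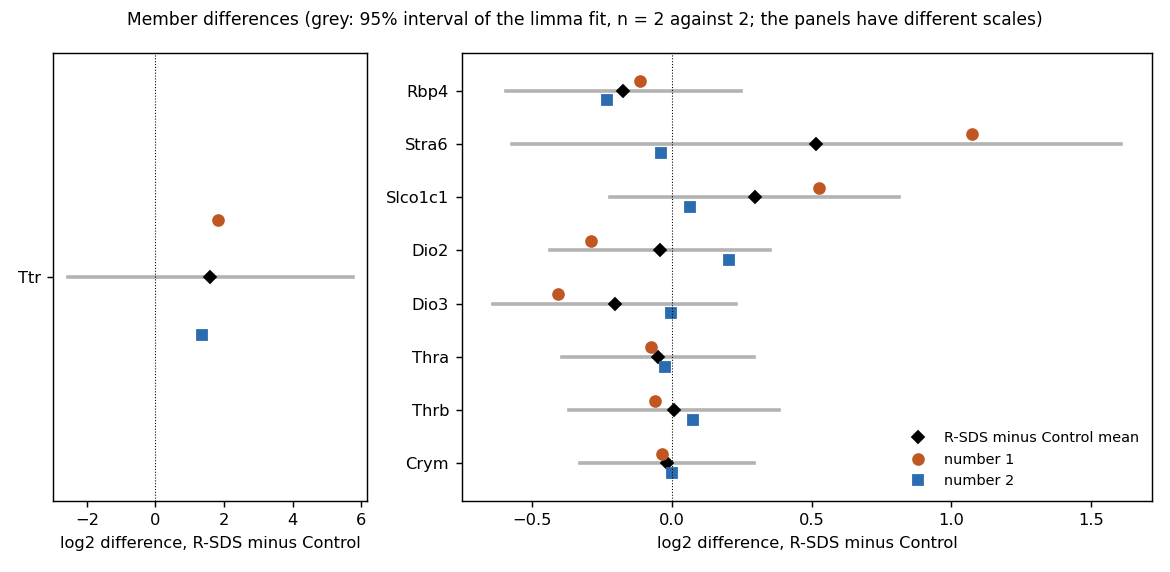
Log2 difference of R-SDS minus Control (horizontal axes, of different scale for Ttr at the left) for the 9 members, with the group difference as a diamond, its 95% interval from the limma fit in grey, R-SDS 1 minus Control 1 as a circle and R-SDS 2 minus Control 2 as a square. Every interval includes 0. Circle and square lie far apart for Stra6 (1.07 and -0.04), Slco1c1 (0.53 and 0.06), Dio2 (-0.29 and 0.21) and Dio3 (-0.41 and -0.0036). For Ttr (1.83 and 1.36) the distance is similar to that of Slco1c1, though its wider scale makes it look smaller.

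Further genes of both pathways were read from lists, with each gene represented by its brightest row. Of 64 genes in 5 lists, 58 were measured, of which 33 had a higher and 25 a lower mean after stress, the median being 0.03 against 0.0089 over all 19938 genes. In limma 0 of the 58 passed an adjusted p of 0.05, and 2 had an unadjusted p under 0.05, where 1.01% of all transcripts did. Both R-SDS arrays lay above both controls for 6 of the 58 and below them for 6, close to the 9.41% and 9.06% of all transcripts. In no pathway list did the medians of the differences within numbers come near those of Ttr.

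Other thyroid hormone transporters and enzymes (11 measured) had 7 higher and 4 lower means with a median of 0.10, which was -0.02 without R-SDS 1. The largest difference was that of Slc7a5, a subunit of an amino acid transporter that also moves thyroid hormones, at 0.25 (0.42 within number 1, 0.07 within number 2, and -0.01 without R-SDS 1). Serpina7, the thyroxine-binding globulin of plasma, had -0.22 at levels near the lower end of the scale, between 3.09 and 3.61. The organic anion transporter genes Slco4a1 and Slco2b1 had -0.18 and 0.17. These became -0.04 and 0.03 without Control 2, and -0.06 and 0.02 without R-SDS 1.

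Partners and cofactors of the hormone receptors (10 measured, 4 higher, 6 lower) had a median of -0.0060, which was 0.07 without Control 1 and 0.04 without R-SDS 2. The retinoid X receptor genes Rxra and Rxrg, whose products pair with the receptors for T3 and retinoic acid, had 0.18 and -0.15. The sign of Rxra turned without Control 2 (-0.04) and without R-SDS 1 (-0.04). The arrays of Rxrg did not overlap, with 5.76 and 5.58 in Control against 5.50 and 5.54 in R-SDS mice. Of the 10, both R-SDS arrays lay below both controls for 1 and above them for 1, against 9.06% and 9.41% of all transcripts. Med1, a subunit of the Mediator complex, had 0.06, and Tbl1x, a corepressor subunit, had 0.07.

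Genes known to be raised by T3 in brain (13 measured) had 8 higher and 5 lower means with a median of 0.04. Cbr2, a carbonyl reductase gene, had 5.49 and 5.42 in controls and 6.06 and 5.70 in stressed mice. It differed by 0.43 (SE 0.16), with an unadjusted p of 0.039 and an adjusted p of 1 in limma. Thrsp, a regulator of lipid synthesis that responds to thyroid hormone in liver, was 0.25 higher, at 8.49 and 8.33 against 8.75 and 8.58. The groups overlapped for neither gene. Of the 13, both R-SDS arrays lay above both controls for 3 and below them for 2, against 9.41% and 9.06% of all transcripts. The clock gene Dbp had 0.53 within number 1 and 0.0041 within number 2. For the transcription factor gene Klf9 the difference was 0.19, but -0.01 without Control 2 and -0.07 without R-SDS 1. Hr, a corepressor gene that T3 induces in brain, had -0.09, with both R-SDS arrays below both controls. The list as a whole had a median of -0.06 without R-SDS 1 and of -0.01 without Control 2.

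Retinoid handling genes (21 measured, 11 higher, 10 lower) had a median of 0.02, which was -0.10 without Control 1. The gene that stood out was Rdh5, a retinol dehydrogenase, with 6.18 and 5.83 in the controls against 8.42 (R-SDS 1) and 5.99 (R-SDS 2). Rdh5 was 4.73-fold higher in R-SDS 1 than in Control 1, and its group difference of 1.20 (SE 0.72, adjusted p = 1 in limma) became -0.01 without R-SDS 1. This resembles the values of Stra6 and of the choroid plexus markers in the same array, and whether they share a source was not tested. The dehydrogenase genes Rdh11 and Rdh10 had 0.33 and 0.28, with 0.31 within number 1 for both, and 0.35 and 0.25 within number 2. For Rdh11 the difference was 0.08 without Control 2 and 0.10 without R-SDS 1. Rpe65, the retinoid isomerase of the eye, was lower at 4.26 and 4.28 in R-SDS mice against 4.59 and 4.58 in Control (difference -0.32, SE 0.13, unadjusted p = 0.046 and adjusted p = 1 in limma). Rpe65 was dim in all 4 arrays, under the first quartile of tested transcripts (4.88 to 5.08). The retinoic acid receptor genes Rara, Rarb and Rarg had 0.15, 0.06 and 0.05, and their groups overlapped. Without R-SDS 1, 1 of these 3 had a higher mean.

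**Figure D4:**
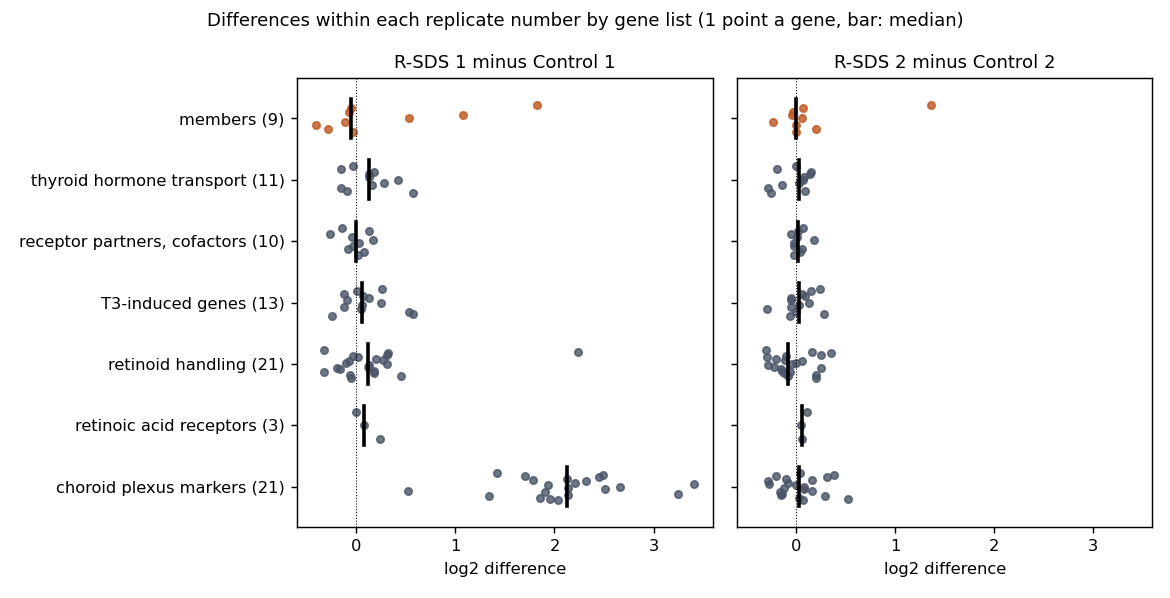
Log2 differences (horizontal axes) of R-SDS 1 minus Control 1 (left) and R-SDS 2 minus Control 2 (right) for the members, 5 pathway lists and the choroid plexus markers (rows, with the number of genes), 1 point per gene and a bar at the median. The markers have a median of 2.13 at the left and 0.03 at the right, Rdh5 is the retinoid handling gene at 2.24 on the left, and Ttr is the member at 1.83 and 1.36.

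All 10 neuron and hippocampal subfield markers had a row. Their median log2 level lay between 8.30 and 8.66 in the 4 arrays, and Prox1 of dentate granule neurons measured 8.30 to 8.49. Without detection calls, and since levels of different probes cannot be set against each other, these values do not verify the labelled tissue.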

How the data were processed

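Total RNA of hippocampus was hybridised to Affymetrix Mouse Gene 1.0 ST arrays. The authors summarised the arrays by RMA (Expression Console), and the deposited values are on the log2 scale. RMA removes background, brings arrays to a common distribution and summarises probes per transcript cluster, yet the 4 columns did not share 1 distribution, so arrays with wider distributions can show larger differences. The files hold no depth or detection call, so precision is limited by the number of arrays. For the build of the array annotation, nothing was given in the sources used here. The labels and the methods name different labelling kits, which was not settled. Groups and replicate numbers came from the titles.

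Of 35556 rows, the 21789 with exactly 1 symbol in the platform annotation were fitted together. Of their Entrez identifiers 99.6% matched the RefSeq table of GRCm38.p6, and 0 symbols changed. R-SDS was compared with Control in limma 3.58.1 (lmFit, eBayes; R 4.3.3), without a block or a filter, with two-sided p-values adjusted by Benjamini-Hochberg over all 21789 rows and 95% intervals on 2 residual and 4.07 prior degrees of freedom. Differences within a number compare 1 array with 1 and have no test. On simulated data with independent arrays, the fit was only required to return the mean of known changes. That does not test its p-values, nor the likeness of arrays with the same number. Alternatives were a further quantile normalisation, scaling to a common median and interquartile range, brighter transcripts only, the replicate number as a block, the methods' t-test (Student, unpaired), a variance trend, the mean of all rows of a gene, and leaving out each array.

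Named by rule were all members, the 5 genes nearest to Ttr over the 4 arrays, and per list the up to 4 genes with the largest differences. The marker lists other than choroid plexus and liver are given as counts, medians or levels. Hr, Aqp1, Ambp and Prox1 were named after their values were seen. The members and lists were chosen with earlier results of these data known. Figures were drawn with matplotlib 3.10.9.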

Additional observations from a re-analysis of the deposited data

How the results depend on the processing

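All values rest on 2 arrays per group. Every member had an adjusted p above 0.05 in limma and in the methods' t-test under each alternative; for Dio3 the fit on brighter transcripts gave no value, since it fell below that filter. The Ttr difference lay between 1.55 and 1.60 under the alternatives that kept all 4 arrays, and from -0.61 to 3.80 with 1 array left out, being negative also without Control 2 (-0.38). With the replicate number as a block (replicate block, 1 residual degree of freedom) it was 1.60 with SE 0.14, an unadjusted p of 1.75e-04 and an adjusted p of 0.960 in limma. That SE and p rest mainly on the spread of all other transcripts, which limma borrows, and little on Ttr itself. The block also assumes that arrays with the same number belong together. Deviations of arrays with the same number from their group means correlated at 0.517 over 21789 transcripts, but with 2 per group this is 1 value and the samples share only a number. With the block Ttr met the cut of the study, as it did not without the block. Over all 21789 transcripts, 54 higher and 46 lower ones met that cut with the block. No other member met it, and no member passed the adjusted p.

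Leaving out 1 array makes a group of 1, which is assumed to vary like the other group. It also turned other signs. The ranges were -0.21 to 1.245 for Stra6 (adjusted p = 0.0672 in limma without R-SDS 2), -0.17 to 0.0811 for Dio2, -0.42 to 0.0137 for Dio3, -0.14 to 0.0383 for Thra, -0.13 to 0.15 for Thrb and -0.0510 to 0.0154 for Crym. Thrb had -0.0038 after quantile normalisation and -0.0070 after scaling to a common median and interquartile range. Rbp4 and Slco1c1 kept their sign under every alternative run, at -0.35 to -0.0022 and 0.0061 to 0.59 with 1 array left out.

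Over all transcripts, 32 were higher and 42 lower at the thresholds of the study in limma. The counts were 5 and 1 among brighter transcripts, 54 and 46 with the replicate block, and 6 and 13 with the methods' t-test. With 1 array left out they ranged from 74 to 416 higher and from 67 to 323 lower, and at the adjusted p, under the same assumption, from 0 to 46 higher and from 0 to 3 lower. Of 21 choroid plexus markers, 7 to 21 were higher with 1 array left out, the 7 being without R-SDS 1. The causes were not tested.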
